A study of Homo sapiens with 11 samples.

Results

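Clone C1 is 1 of 4 stable gelsolin transfectants of HCT116, a human colorectal carcinoma cell line, and its 2 arrays were set against the 6 arrays of the other gelsolin clones C2, C3 and C8. The series holds 11 arrays of 6 lines. The 4 gelsolin lines (C1, C2, C3 and C8) carried a pIRES2-EGFP plasmid with the coding sequence of human cytoplasmic gelsolin, and the vector lines V4 and V5 (Vec4 and Vec5 in the labels) carried the empty pIRES2-EGFP plasmid. All lines had been selected with Geneticin (G418), and none received a further treatment. Each gelsolin line and V4 was harvested 2 times, with the first harvest on beadchip 1 and the second on beadchip 2, while V5 is represented here by 1 array on beadchip 2. The untransfected cells were not analysed here.

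C1 is a single clone, so what sets it apart cannot be assigned to gelsolin, to the place of plasmid insertion or to the cell that founded the clone. Harvest and beadchip cannot be told apart, and each line occupied the same section of both beadchips (section E for C1), so that clone and section cannot be told apart either. Gelsolin severs and caps actin filaments under the control of calcium and phosphoinositides, and it has been studied in colorectal cancer cells for its part in motility and invasion. Urokinase (PLAU) converts plasminogen to plasmin at the cell surface, where it is held by its receptor PLAUR, and matrilysin (MMP7) cleaves matrix components and cell surface proteins. Interferon signalling acts through a complex of STAT proteins and IRF9 on a DNA element called the interferon-stimulated response element (ISRE), and shortage of amino acids acts through ATF4 on an element with the core TGATG.

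Signals were scaled by dividing each array by its own median and multiplying by the common median of 87.8. A difference is the log2 scaled signal of C1 minus the mean of C2, C3 and C8 on the same beadchip. No background was subtracted here, and whether BeadStudio had done so is not given. The lowest signal before scaling was 34.2, on the V4 array of beadchip 2, so the fold changes of dim genes are likely understated. Of 10839 probes kept, 10363 genes were tested, of which 895 are known only by a probe number and 91 passed the limit on signal only through C1. The median signal before scaling was 93.9 and 105.0 on the C1 arrays, 80.1 to 92.1 on the arrays of the other gelsolin clones and 75.7 to 88.7 on the vector arrays. The harvests of C1 correlated at r = 0.979 across genes, which was lower than the 0.985 of C2, the 0.986 of C3 and the 0.986 of C8 (genes are not independent replicates). Of 10 markers of colorectal epithelium 7 were tested, with median differences of -0.04 in the first and 0.14 in the second harvest, and CDX2, the intestinal homeobox factor, had 399 and 393 in C1, against 319 to 482 in the other clones. Of the markers of other cell types, 2 of 10 for lymphoid and myeloid cells, 1 of 8 for fibroblasts, 1 of 6 for hepatocytes and 1 of 5 for neural cells passed the limit. One of them, CD68, a lysosomal protein of macrophages that other cells also make, had 681 and 1028 in C1, against 209 to 728 in the other clones.

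The measured GSN signal did not separate C1 from the other clones. Whether its probe lies in the gelsolin coding sequence carried by the plasmid was not checked. The level of the plasmid transcript is therefore not known. GSN had scaled signals of 215 and 234 in C1 (the first and the second harvest, as in all pairs of values below), against C2 at 186 and 206, C3 at 204 and 213, C8 at 258 and 269, V4 at 140.4 and 139.7 and V5 at 139. Every gelsolin array was above every vector array, and C1 lay between C2 and C8. The difference was 0.01 in the first and 0.04 in the second harvest (limma on line means, adjusted p = 1.00).

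No gene passed limma's test of C1 against the other clones at an adjusted p of 0.05, in a design with 1 line against 3 and 2 residual degrees of freedom. Without adjustment, 272 genes (2.62%) were higher and 124 (1.2%) lower at p under 0.05. A fit on the 8 arrays with the beadchip as replicate block and lines as terms, which measures the spread between harvests and not between clones, called 9 genes higher (0.0868%) and 1 lower (0.00965%). The higher ones were SEMA3A, SERPINA3, ATF3, NTSR1, NT5E, CXCL8, ZYX, MMP7 and BHLHE40, and the lower one was AKR1C3. The change of the C1 difference between harvests, tested on the second minus the first harvest of each line, also gave no call, with 275 genes (2.65%) higher and 105 (1.01%) lower in the second harvest at an unadjusted p under 0.05.

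C1 was above every other gelsolin clone on both beadchips for 1038 genes (10%) and below every one for 558 (5.38%). The differences of C1 in the 2 harvests correlated across genes at r = 0.29. A gap of at least 2-fold to the nearest other clone was the measure used to describe single genes, with the values of the same contrast and so with no test. Such a gap above every other clone was found for 11 genes (0.106%) on beadchip 1 and 29 (0.28%) on beadchip 2, and a gap below them for 1 gene (0.00965%) on each. Both beadchips together gave 2 genes above (0.0193%) and 1 below (0.00965%), while 21 genes (0.203%) were above only in the second harvest, 3 (0.0289%) only in the first, and none was below in 1 harvest only. A further 6 genes (0.0579%) had the gap above in the second harvest and were above every other clone by less in the first (CXCL2, NT5E, PLAU, SERPINA3, SESN2 and the probe ILMN_1701424), and 6 (0.0579%) had it in the first harvest and were above by less in the second (CPA4, CSRNP1, MMP7, SEMA3A, SNTB1 and the probe ILMN_1743199). Here "only" means that on the other beadchip C1 was not beyond every other clone, in the same direction, at any distance. Among the genes named here, CXCL2 and SESN2 passed the limit on signal through C1 alone and so had to be higher in C1.

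The direction from which the genes were chosen mattered. Of the 11 genes at least 2-fold above on beadchip 1, all 11 had a positive difference on beadchip 2 as well, with a median of 0.71, and 8 were again above every other clone. Over all genes, 5971 of 10363 had a positive difference on beadchip 2, and 29.9% were above every other clone. Of the 29 chosen on beadchip 2, 13 had a positive difference on beadchip 1, with a median of -0.05, and 8 were above every other clone. The values over all genes on beadchip 1 were 5304 of 10363 and 25.1%.

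**Figure D1:**
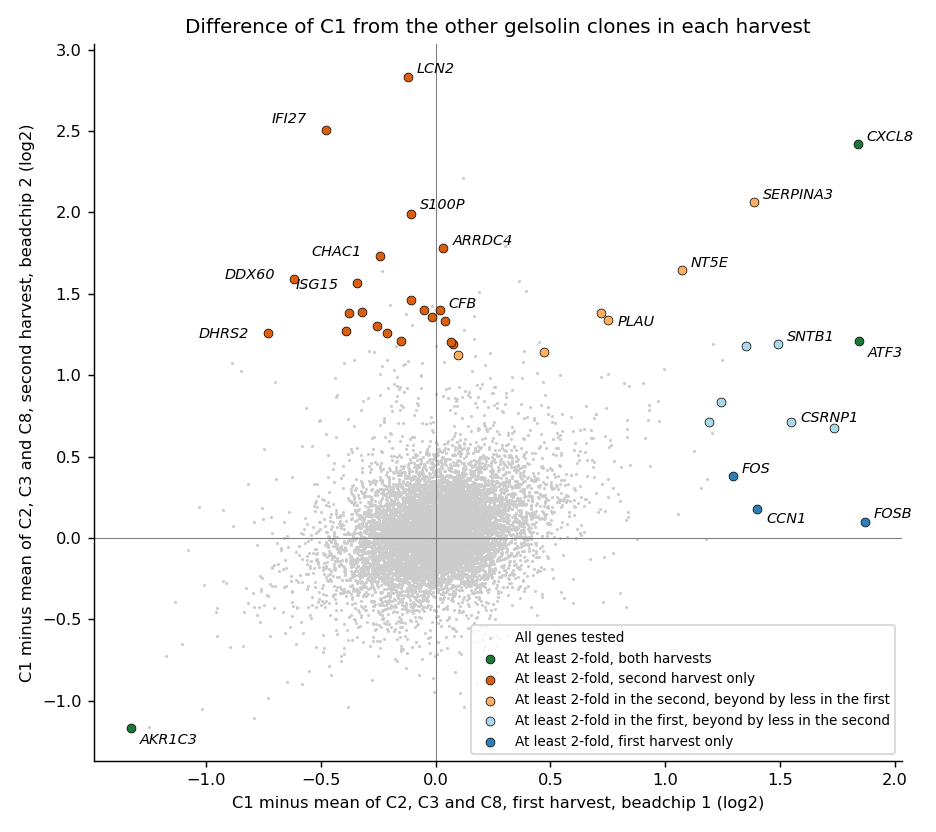
Difference of C1 from the mean of C2, C3 and C8 (log2 scaled signal) in the first harvest (x axis, beadchip 1) and the second (y axis, beadchip 2), 1 point per gene for 10363 genes, with the genes at least 2-fold beyond every other clone coloured by the harvest in which the gap was found. The 21 genes of the second harvest only lie between -0.73 (DHRS2) and 0.08 (HERPUD1) on the x axis and at 1.19 (HERPUD1) or above on the y axis, while CXCL8, ATF3 and AKR1C3 are far from 0 on both.

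The same count made with each other gelsolin clone in turn gave, for both harvests, 1 gene above and 1 below for C2, none for C3 and 1 above for C8. For the second harvest only it gave 5 genes below for C2, 1 above and 3 below for C3, and 33 above and 1 below for C8. A group of genes beyond every other clone in the second harvest alone was therefore not particular to C1, and the second C8 array enters every C1 difference of that harvest. The differences of C8 in its 2 harvests correlated at r = 0.13, against 0.36 for C2 and 0.41 for C3.

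The genes apart in both harvests were CXCL8, ATF3 and AKR1C3. CXCL8, the neutrophil chemokine interleukin 8, had 494 and 1448 in C1, against C2 at 109.9 and 163, C3 at 145 and 226 and C8 at 165 and 541. All gelsolin lines were brighter in the second harvest, and C1 was above the highest of the others in each. Its difference was 1.84 and 2.42, with a mean of 2.13 (SE 0.46), an adjusted p of 0.932 by limma on line means and 0.0173 with the replicate block. The vector lines had 312 and 728 (V4) and 882 (V5), below C1 on the same beadchip.

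ATF3, a transcription factor of the stress response, had 2054 and 1267 in C1, against C2 at 693 and 539.8, C3 at 532 and 536 and C8 at 509 and 567. The lowest C1 value lay above the highest value of the other clones, a state for which the share over all genes was not taken. The difference was 1.84 and 1.21 (mean 1.53, SE 0.19, limma adjusted p = 0.0934). In the vector lines ATF3 had 1127 and 1505 (V4) and 2426 (V5), so that C1 was above V4 on beadchip 1 and below both vector lines on beadchip 2.

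AKR1C3, an aldo-keto reductase of steroid and prostaglandin metabolism, was the gene below. It had 171 and 176 in C1, against C2 at 399.9 and 438, C3 at 408 and 374 and C8 at 487 and 377. The difference was -1.33 and -1.17 (mean -1.25, SE 0.17, limma adjusted p = 0.0999). The vector lines had 229 and 192 (V4) and 194 (V5), closer to C1 than to the other gelsolin clones. For all 3 of these genes the vector lines lay nearer to C1 than to the mean of C2, C3 and C8 on both beadchips. Over all genes this was so for 45.4% on beadchip 1 and 48.7% on beadchip 2.

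The 2-fold limit cut through a graded series. The smaller of the gaps on the 2 beadchips was 1.42 (log2) for CXCL8 and 1.16 for ATF3, the members just inside, and 0.88 for NT5E, 0.80 for TNFRSF6B and 0.77 for ZYX just outside. On the lower side it was 1.09 for AKR1C3 and 0.56 for SOX4. At a gap of 1.5-fold, 8 genes (0.0772%) were above in both harvests and 1 (0.00965%) was below, 84 (0.811%) were above and 2 (0.0193%) below only in the second harvest, and 15 (0.145%) were above and 6 (0.0579%) below only in the first. A further 43 (0.415%) above and 6 (0.0579%) below reached this gap in the second harvest and were beyond every other clone by less in the first. Of those above, 7 of the 84, 3 of the 15 and 2 of the 43 passed the limit on signal only through C1. These had to be higher in C1.

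Besides CXCL8, ATF3 and AKR1C3, the genes apart by 1.5-fold in both harvests were NT5E, TNFRSF6B, ZYX, SEMA3A, P4HA1 and GCC1, all above. NT5E, the ectonucleotidase CD73, which makes adenosine outside the cell, had 710.2 and 1041 in C1, against 307 to 386 in the other clones, and 1629 and 1565 (V4) and 1476 (V5) in the vector lines. Its difference was 1.07 and 1.65 (mean 1.36, SE 0.18, limma adjusted p = 0.0934), and C1 lay between the other gelsolin clones and the vector lines. SERPINA3, alpha-1-antichymotrypsin, is described because it passed limma's test with the replicate block (adjusted p = 0.00948); its smaller gap, 0.56, was short of 1.5-fold. It had 439 and 1046 in C1, against C2 at 104 and 123, C3 at 152 and 275 and C8 at 298 and 463. Its difference was 1.39 and 2.06, but the other clones were spread so widely that the SE of the mean difference of 1.72 was 0.82 (limma adjusted p = 1.00). SEMA3A, a secreted guidance factor that acts through neuropilins, had 205 and 215 in C1, against C2 at 64.4 and 61.1, C3 at 84.9 and 103 and C8 at 94.6 and 137. The vector lines were far above all of these, with 635 and 710.1 (V4) and 973 (V5).

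ZYX, zyxin, a protein of focal adhesions and stress fibres, had 1680.4 and 2329 in C1, against 918 to 1346 in the other clones, with a difference of 0.82 and 0.95 (mean 0.89, SE 0.19, limma adjusted p = 0.434). BHLHE40 and NTSR1 had a smaller gap of 0.45 and 0.39, short of 1.5-fold, and are described because they passed with the replicate block (limma adjusted p = 0.0442 and 0.0131). BHLHE40, a transcriptional repressor of the clock and hypoxia responses, had 2262 and 2298 in C1, against 1122 to 1685 in the other clones. NTSR1, the neurotensin receptor, had 3568 and 3870.0 in C1, against 1350.0 to 2963 in the other clones. For these 3 genes no C1 array overlapped an array of the other clones, in values of the same contrast that chose them. The share of all genes with no such overlap across beadchips was not taken. By a looser measure, within beadchips, C1 was above every other clone on both for 10% of all genes. P4HA1, a collagen prolyl hydroxylase, had 687 and 1186 in C1, and its difference was 0.75 and 1.01 (limma adjusted p = 0.579). TMSB15A, a thymosin that binds monomeric actin, is a member of the actin list and was below the other clones by a smaller gap of 0.50. It had 764 and 692 in C1, against 979.7 to 3383 in the other clones, with a difference of -1.25 and -1.16 (SE 0.46 of the mean of -1.20, limma adjusted p = 1.00). It was in turn lower in the vector lines, at 392 and 223 (V4) and 278 (V5). The list of 42 gelsolin relatives and actin regulators tested had a median difference of 0.01 in the first and -0.00 in the second harvest, against 0.01 and 0.04 over all genes.

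**Figure D2:**
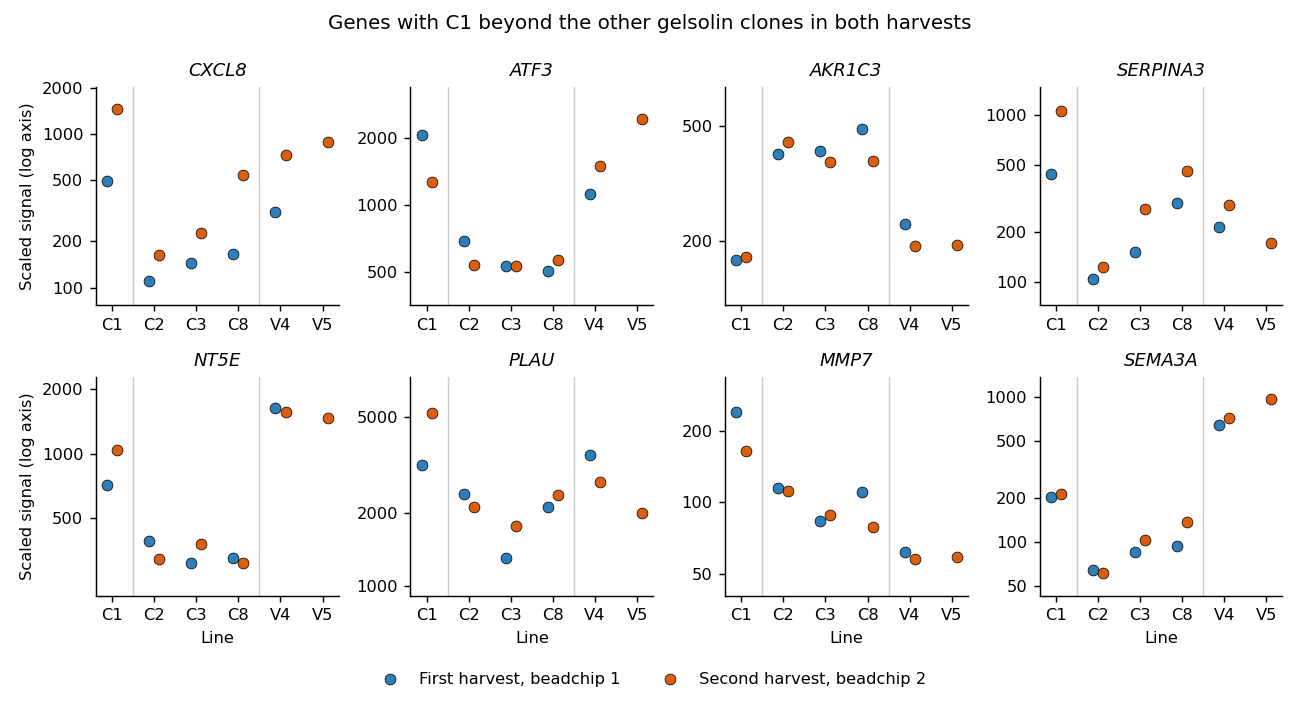
Scaled signal (log axis) of CXCL8, ATF3, AKR1C3, SERPINA3, NT5E, PLAU, MMP7 and SEMA3A by line, with 1 point per array, blue for the first harvest and orange for the second. C1 is apart from C2, C3 and C8 on both beadchips in each panel, and the vector lines V4 and V5 are above C1 for NT5E and SEMA3A and below it for MMP7.

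The proteases PLAU and MMP7 were above every other gelsolin clone in both harvests, and the receptor PLAUR in the second alone. PLAU had 3162 and 5244 in C1, against C2 at 2407 and 2116, C3 at 1299 and 1768 and C8 at 2116 and 2392, with a difference of 0.75 and 1.34 (mean 1.04, SE 0.25, limma adjusted p = 0.632). V4 had 3494 and 2694 and V5 had 2005, so that C1 was below V4 in the first harvest. PLAUR had 653 and 1129 in C1, against C2 at 693 and 647, C3 at 467 and 498 and C8 at 527 and 578, and C1 was below C2 in the first harvest. Its difference was 0.24 and 0.98 (mean 0.61, SE 0.22, limma adjusted p = 1.00).

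MMP7 had 242 and 165 in C1, against C2 at 115 and 112, C3 at 83.4 and 88.9 and C8 at 111 and 78.6. All vector arrays were lower still, with 61.9 and 57.7 (V4) and 58.9 (V5), below the common median of 87.8. The difference was 1.24 and 0.84 (mean 1.04, SE 0.17), with a limma adjusted p of 0.18 on line means and 0.0281 with the replicate block. Of 14 genes of the urokinase system 9 were tested, with median differences of 0.15 and 0.19, and C1 was above every other clone for 2 of them on beadchip 1 (22.2%, against 25.1% of all genes) and 4 on beadchip 2 (44.4%, against 29.9%). SERPINE2, which inhibits urokinase and thrombin, had 7863 and 11869 in C1, against 6246 to 10861 in the other clones. Of 29 metalloproteinases, ADAM proteases and TIMPs 11 were tested, with medians of -0.01 and 0.12, and the inhibitor TIMP1 had 4798 and 5541 in C1, against 4428 to 5451. Neither list had a gene past limma's test on line means, and MMP7 was the only member of these lists that passed with the replicate block.

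The genes apart only in the second harvest were led by LCN2, IFI27 and S100P. Of the 21, 2 are known by a probe number alone and 2 others, CCL20 and CFB, passed the limit on signal only through C1. On beadchip 2 the gap was 1.03 (log2) for MAP1LC3B, 1.02 for the probe ILMN_1691364 and 1.00 for DHRS2, just inside the limit, and 0.95 for KRT80, 0.95 for IFITM1 and 0.94 for SERPINB3, just outside. The median difference of the 21 genes was -0.15 in the first and 1.39 in the second harvest. No member passed the test of the change between harvests, and the smallest adjusted p was 0.127 for LCN2 and for CHAC1. The second C1 array had the highest median before scaling of all arrays, and the part of this in the result was not tested beyond the other normalizations, under which 14 genes (quantile) and 13 genes (normexp and quantile) were found in place of 21.

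LCN2, lipocalin 2, an iron-siderophore binding protein of inflamed epithelia, had 254 and 2362 in C1, against C2 at 226 and 224, C3 at 199 and 307 and C8 at 469.5 and 529. In the first harvest C1 lay among the other clones, and in the second it was above all of them. On that beadchip it was also above V4 (1419.7 and 1379) and V5 (323). The difference was -0.12 and 2.83, a change of 2.96 (SE 0.31, limma adjusted p = 0.127). S100P, a calcium-binding protein, had 101 and 396 in C1, against 85.9 to 126 in the other clones. Its change of 2.10 (SE 0.26, limma adjusted p = 0.207) brought C1 towards the vector lines, which had 462 and 601 (V4) and 471 (V5). ARRDC4, an arrestin-domain protein that is regulated by glucose, had 114 and 429.9 in C1, against 101 to 133 in the other clones (change 1.75, SE 0.24, limma adjusted p = 0.207).

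Of the 21 genes, ISG15, IFI27 and LAMP3 belong to the list of interferon-stimulated effectors and IFIH1 to that of interferon signalling. ISG15, the ubiquitin-like modifier, had 3025 and 12473 in C1, against C2 at 4433 and 5472, C3 at 3127 and 2709.8 and C8 at 4073 and 5054. C1 had the lowest signal of the gelsolin clones in the first harvest and the highest in the second, with a change of 1.91 (SE 0.26, limma adjusted p = 0.207). IFI27, a mitochondrial interferon-induced protein, had 67.6 and 896 in C1, against C2 at 182 and 299, C3 at 63.1 and 67.1 and C8 at 72.7 and 196. Its change was 2.98 (SE 0.46, limma adjusted p = 0.241), and in the first harvest C1, C3 and C8 were below the common median. IFIH1, the double-stranded RNA sensor MDA5, had 223 and 762 in C1, against C2 at 384 and 308, C3 at 191 and 187 and C8 at 189 and 370.0. DDX60, a helicase, had 96.0 and 472 in C1, against 111 to 211 in the other clones, and was again lowest and then highest in C1. The vector lines were low for these genes on both beadchips, with 2497 to 2652 for ISG15, 55.5 to 60.7 for IFI27, 160.4 to 217 for IFIH1 and 81.2 to 93.9 for DDX60.

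The ISG15, IFI27, IFIH1 and DDX60 promoters are shown because they hold the core of the ISRE, searched as GAAA and a further GAAA with any 2 bases between them, on both strands, and set in capitals (read as TTTC and TTTC where it is on the opposite strand). Each is the RefSeq sequence on GRCh38.p14 from 250 bases before to 50 bases after the gene's start, 5′ to 3′ along the gene, at chr1:1013247-1013546 (plus strand) for ISG15, chr14:94110486-94110785 (plus) for IFI27, chr2:162318635-162318934 (minus) for IFIH1 and chr4:168318703-168319002 (minus) for DDX60.
ISG15: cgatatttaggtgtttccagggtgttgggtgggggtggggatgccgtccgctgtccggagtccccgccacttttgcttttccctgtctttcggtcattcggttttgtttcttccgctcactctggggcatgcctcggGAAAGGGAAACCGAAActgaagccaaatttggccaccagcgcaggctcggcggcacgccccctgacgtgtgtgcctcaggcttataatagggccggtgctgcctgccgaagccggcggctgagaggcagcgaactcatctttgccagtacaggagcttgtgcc
IFI27: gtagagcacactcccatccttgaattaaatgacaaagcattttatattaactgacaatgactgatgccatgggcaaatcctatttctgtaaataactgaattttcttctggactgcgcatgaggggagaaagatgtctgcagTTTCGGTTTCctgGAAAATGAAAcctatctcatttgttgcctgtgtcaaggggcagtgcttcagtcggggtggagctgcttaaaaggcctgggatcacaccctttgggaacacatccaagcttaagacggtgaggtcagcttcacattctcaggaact
IFIH1: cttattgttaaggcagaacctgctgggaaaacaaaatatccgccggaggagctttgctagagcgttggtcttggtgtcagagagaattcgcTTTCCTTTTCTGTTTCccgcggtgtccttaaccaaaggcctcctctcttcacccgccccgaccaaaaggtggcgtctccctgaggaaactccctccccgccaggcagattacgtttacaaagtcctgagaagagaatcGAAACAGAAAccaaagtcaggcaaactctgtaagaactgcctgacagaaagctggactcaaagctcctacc
DDX60: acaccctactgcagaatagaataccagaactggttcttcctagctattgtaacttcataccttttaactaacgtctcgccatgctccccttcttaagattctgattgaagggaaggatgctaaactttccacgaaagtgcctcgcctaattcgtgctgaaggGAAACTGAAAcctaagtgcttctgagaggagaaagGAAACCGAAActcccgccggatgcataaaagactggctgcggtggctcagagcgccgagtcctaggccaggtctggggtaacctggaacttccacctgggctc

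The core was found in 5 of the 17 promoters available for the 21 genes (29.4%), those of ISG15, IFI27, IFIH1, DDX60 and CFB. Over all 7865 genes tested with a promoter it was found in 210 (2.67%), and over all 27305 promoters in 996 (3.65%). In ISG15 and IFIH1 matches overlap. A match is a description of the letters in this window and not a measured binding site.

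Of the 54 interferon-stimulated effectors listed, 39 were tested, and most were higher in C1 than in the other clones in the second harvest but not in the first. C1 was above every other clone for 7 of the 39 on beadchip 1 (25.1% of all genes) and for 37 on beadchip 2 (29.9% of all genes), and the median difference was -0.03 and 0.88, against 0.01 and 0.04 over all genes. On the same scale, against the mean of C2, C3 and C8 on the same beadchip, the medians of C2 were 0.16 and 0.11, those of C3 -0.22 and -0.38, those of C8 0.04 and 0.26, and those of the vector lines -0.39 and -0.66 (V4) and -0.66 (V5). The change between harvests had an unadjusted p under 0.05 and a positive sign in 29 of the 39, against 2.65% of all genes, with no call after adjustment over all genes. One of the 39 (DTX3L) passed the limit on signal only through C1 and so had to differ. Without it C1 was above every other clone for 6 and 36 of 38, with medians of -0.06 and 0.90. Over all 39, the median difference on beadchip 2 was 1.02 without C2, 0.72 without C3 and 1.00 without C8.

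Among the members, BST2, the tetherin that holds virus particles at the cell surface, had 222 and 883 in C1, against 141 to 479 in the other clones. IFI6 had 2204 and 13839 in C1, against C2 at 3406 and 4339.6, C3 at 1969.5 and 2072 and C8 at 2588 and 9742, so that C8 also was much higher in its second harvest. IFIT1, which binds foreign 5′ ends of RNA, had 149.9 and 891 in C1, against C2 at 304 and 317, C3 at 143 and 165 and C8 at 256 and 547. The members not above the other clones on beadchip 2 were LY6E, with 3672 in C1 against 3727 in C2, and ISG20, a 3′ to 5′ exonuclease, with 616 in C1 against 723 in C2. IFITM1, IFITM2 and IFITM3 are close relatives, and cross-hybridisation of their probes was not tested.

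The signalling part of the pathway had smaller medians. Of 36 interferon ligands, receptors, sensors and signalling genes 19 were tested, with median differences of -0.10 and 0.25, and C1 was above every other clone for 3 on beadchip 1 (15.8%, against 25.1% of all genes) and 12 on beadchip 2 (63.2%, against 29.9%). IRF7, the factor that drives interferon genes, had 422 and 1688 in C1, against 358 to 988 in the other clones. IRF9 had 553 and 1812 in C1, against 485 to 1121 in the other clones. Of 21 genes of MHC class I antigen presentation 14 were tested, with medians of 0.26 and 0.45, and C1 was above every other clone for 9 and 12 of them, against 25.1% and 29.9% of all genes. HLA-G passed the limit on signal only through C1, and without it the counts were 8 and 11 of 13. B2M, the invariant light chain, had 8272 and 11236 in C1, against C2 at 6018 and 8215, C3 at 4922 and 7506 and C8 at 7565 and 10059, and its difference of 0.45 and 0.40 was alike in both harvests. HLA genes are also close relatives, with the same limit on their probes.

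**Figure D3:**
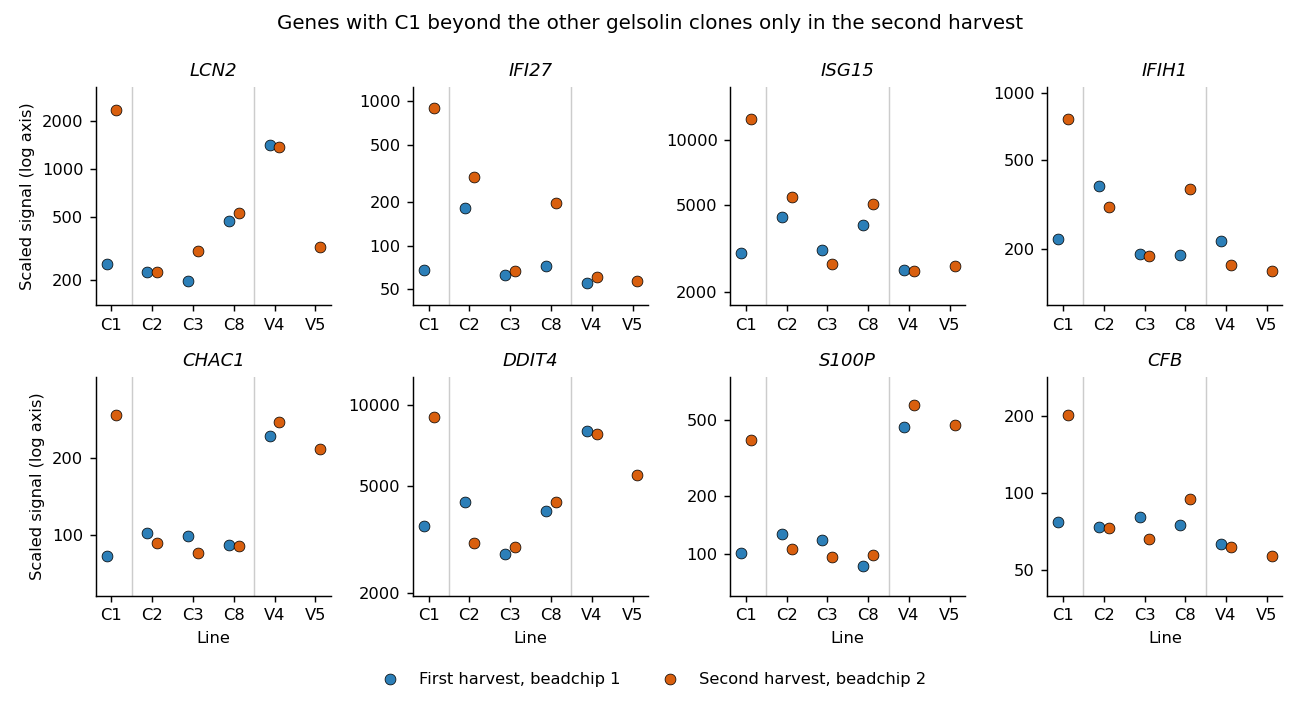
Scaled signal (log axis) of LCN2, IFI27, ISG15, IFIH1, CHAC1, DDIT4, S100P and CFB by line, with 1 point per array, blue for the first harvest and orange for the second. In each panel the first harvest of C1 lies among or below the other gelsolin clones, and the second lies above all of them.

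CHAC1 and DDIT4, also among the 21, belong to the amino acid stress list. CHAC1, which degrades glutathione, had 82.3 and 296 in C1, against C2 at 102 and 92.5, C3 at 98.6 and 85.0 and C8 at 91.4 and 90.7. It was lowest in C1 in the first harvest and more than 2-fold above the others in the second, with a change of 1.97 (SE 0.20, limma adjusted p = 0.127). DDIT4, an inhibitor of mTORC1, had 3549 and 9048 in C1, against 2798 to 4375 in the other clones (change 1.45, SE 0.28, limma adjusted p = 0.441). HERPUD1, a protein of endoplasmic reticulum degradation, had 827 and 1764 in C1, against 687 to 873 in the other clones. In the vector lines CHAC1 had 217 to 276, DDIT4 5493 to 7988 and HERPUD1 1518 to 1968, levels near the second harvest of C1.

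The CHAC1 and ATF3 promoters are shown because each holds a match, in capitals, to the core of the amino acid response element, searched as TGATGNAA on both strands (on the opposite strand it ends in CATCA) after the gene values had been seen. They are RefSeq sequence on GRCh38.p14 over the same window, at chr15:40953221-40953520 (plus strand) for CHAC1 and chr1:212565157-212565456 (plus) for ATF3.
CHAC1: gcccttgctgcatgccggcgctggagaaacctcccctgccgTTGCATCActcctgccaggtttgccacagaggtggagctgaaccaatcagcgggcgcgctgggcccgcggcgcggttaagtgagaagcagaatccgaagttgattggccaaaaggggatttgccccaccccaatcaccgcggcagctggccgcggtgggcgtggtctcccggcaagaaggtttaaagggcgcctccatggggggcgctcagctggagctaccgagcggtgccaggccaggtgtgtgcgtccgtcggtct
ATF3: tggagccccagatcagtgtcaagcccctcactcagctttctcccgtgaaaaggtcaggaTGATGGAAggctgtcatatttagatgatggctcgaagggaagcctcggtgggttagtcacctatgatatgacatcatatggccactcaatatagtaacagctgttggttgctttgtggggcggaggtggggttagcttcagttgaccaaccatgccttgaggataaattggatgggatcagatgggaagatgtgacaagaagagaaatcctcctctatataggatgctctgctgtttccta

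This core was found in 3 of the 17 promoters of the 21 genes (17.6%: CHAC1, HERPUD1 and S100P), in 143 of the 7865 promoters of all genes tested (1.82%) and in 1003 of all 27305 promoters (3.67%). In the amino acid stress list it was found in 11 of 28 promoters (39.3%). The ISRE core was found in none of the 28, which is near its share of 2.67% over all genes tested with a promoter.

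Of 36 amino acid stress genes 34 were tested. C1 was above every other clone for 4 and below every one for 18 on beadchip 1 (25.1% and 19.4% of all genes), and above every other clone for 32 on beadchip 2 (29.9% of all genes). SESN2 and NUPR1 passed the limit on signal only through C1 and so had to differ; without them the counts were 3, 18 and 30 of 32, with medians of -0.17 and 0.54. Over all 34 the median difference was -0.15 and 0.56, against -0.09 to 0.07 for the arrays of C2, C3 and C8 on the same scale, and 0.88 and 0.70 for V4 and 0.67 for V5. On the second beadchip C1 thus lay close to the vector lines for this list, while for the interferon-stimulated effectors the vector lines were on the other side of the gelsolin clones. The change between harvests had an unadjusted p under 0.05 and a positive sign in 22 of the 34, against 2.65% of all genes, with no call after adjustment. The median difference of the 34 on beadchip 2 was 0.59 without C2, 0.57 without C3 and 0.49 without C8.

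TRIB3, a pseudokinase, had 1436 and 4257 in C1, against 1346 to 2337 in the other clones, and 5430.0 to 6017 in the vector lines. PSAT1, of serine synthesis, had 1201 and 3611 in C1, against 1402 to 1942 in the other clones (change 1.25, SE 0.21, limma adjusted p = 0.35). The signal of PSAT1 in C1 was the lowest of the gelsolin clones in the first harvest and the highest in the second. WARS1, the tryptophanyl-tRNA synthetase, had 287 and 903 in C1, against 374 to 499.9 in the other clones. ASNS, asparagine synthetase, had 4637 and 11370.0 in C1, against 4936 to 8194 in the other clones and 11984 to 13326 in the vector lines. These 4 genes were below or at the lower end of the other clones in the first harvest and above all of them in the second. ATF3 was the exception in the list, with its larger difference in the first harvest. EPRS1 and LARS1, tRNA synthetases, were the members not above the other clones on beadchip 2, with 4020 in C1 against 4140 in C3 for EPRS1, and 1591 in C1 against 1904 in C8 for LARS1.

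The NF-kB targets and chemokines, 17 tested of 35, had median differences of 0.17 and 0.66, and C1 was above every other clone for 8 on beadchip 1 (25.1% of all genes) and 15 on beadchip 2 (29.9% of all genes). RELB, CXCL2, CCL20 and ICAM1 passed the limit on signal only through C1 and so had to differ. Without these 4, C1 was above every other clone for 6 and 11 of 13, with medians of 0.17 and 0.58. CCL20, a chemokine for lymphocytes and dendritic cells, had 64.5 and 158 in C1, against 57.2 to 69.4 in the other clones, which were all below the common median. CXCL1, a neutrophil chemokine, had 175 and 533 in C1, against C2 at 127 and 131, C3 at 129.9 and 169 and C8 at 143 and 292. CXCL2, its close relative, had 82.5 and 139.5 in C1, against 55.0 to 68.3 in the other clones. CXCL1 and CXCL2 were highest in C1 in both harvests, with the wider gap in the second. NFKBIA, the inhibitor that NF-kB itself induces, had 3860.4 and 6073 in C1, against 2955 to 4002 in the other clones. IL18 and SOD2 were the members not above the other clones on beadchip 2, with 6717 in C1 against 8306 to 14373 for IL18, and 671 in C1 against 612 to 731 for SOD2.

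The other genes with a gap only in the second harvest were of mixed function. GCNT3, a mucin glycosyltransferase, had 150.1 and 497 in C1, against 106 to 322 in the other clones. MAP1LC3B, the autophagosome protein LC3B, had 1269 and 3194 in C1, against 1036 to 1569 in the other clones and 3170.5 to 4024 in the vector lines. NIBAN1, a stress-regulated protein, had 234 and 937 in C1, against 207 to 424 in the other clones. In these 3 genes the first C1 array lay within the range of the other clones and the second lay outside it. CFB, complement factor B, had 77.1 and 202 in C1, against 65.9 to 94.1 in the other clones. LAMP3, a lysosomal membrane protein, had 130.5 and 374 in C1, against 110.3 to 164 in the other clones, and SLFN5, of the schlafen family, had 121 and 369 in C1, against 115 to 179 in the other clones. CFB was below the common median on the first C1 array and above it on the second. DHRS2, a short-chain dehydrogenase, had 86.1 and 328 in C1, against 105 to 189.9, and HKDC1, a hexokinase, had 117 and 304 in C1, against 118 to 147. Of the 21 genes, C1 was beyond the vector lines too in 15 on beadchip 2, a count for which the share over all genes was not taken. The vector lines lay nearer to C1 than to the other gelsolin clones in 9 on that beadchip, against 48.7% of all genes.

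A turn of order between harvests was part of this set. For 7 genes (0.0675% of those tested) C1 was below every other clone in the first harvest and at least 2-fold above every one in the second, namely CHAC1, DDX60, DHRS2, HKDC1, ISG15 and the probes ILMN_1691364 and ILMN_1798256. Without a limit on distance, 387 genes (3.73%) went from lowest in the first harvest to highest in the second, and 324 (3.13%) the other way.

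**Figure D4:**
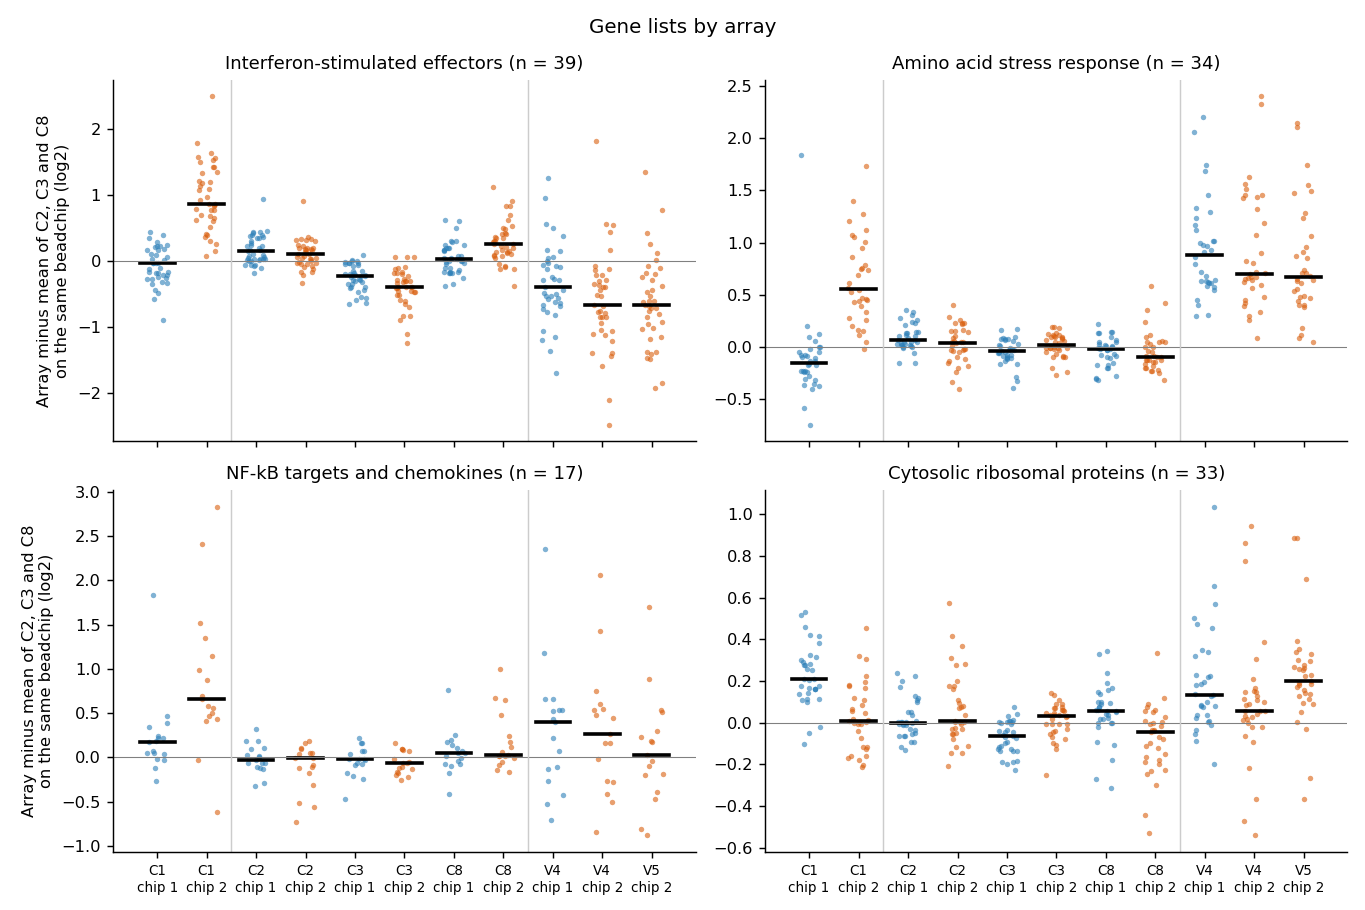
Difference of each array from the mean of C2, C3 and C8 on the same beadchip (log2 scaled signal) for interferon-stimulated effectors (39 genes), amino acid stress response (34), NF-kB targets and chemokines (17) and cytosolic ribosomal proteins (33), with 1 point per gene and a line at the median. In the second harvest of C1 the medians were 0.88, 0.56, 0.66 and 0.01.

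Some lists stood apart in the first harvest instead. Of 33 cytosolic ribosomal protein genes, C1 was above every other clone for 25 on beadchip 1 (25.1% of all genes) and for 4 on beadchip 2 (29.9% of all genes), with median differences of 0.21 and 0.01. RPS7, of the small subunit, had 1452 and 1480.1 in C1, against C2 at 1049.8 and 1339, C3 at 929 and 1257 and C8 at 1070.3 and 1021. Of 26 genes of cholesterol and fatty acid synthesis, C1 was above every other clone for 15 on beadchip 1 and 4 on beadchip 2, against 25.1% and 29.9% of all genes, and below every one for 0 and 11, against 19.4% and 17.4%. The medians were 0.23 and -0.12. HMGCS1, an early enzyme of cholesterol synthesis, had 1366 and 834 in C1, against C2 at 933 and 919.9, C3 at 1049 and 1536 and C8 at 817 and 885. No member of these lists passed limma's tests on line means or of the change.

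The 3 genes at least 2-fold above the other clones only in the first harvest were the immediate early genes FOS, FOSB and CCN1, which growth factors and serum induce within minutes. FOS had 3444 and 2592 in C1, against C2 at 1414 and 2989, C3 at 1376 and 1930.2 and C8 at 1419.5 and 1375. FOSB had 1198 and 455 in C1, against C2 at 307 and 639, C3 at 279.9 and 426 and C8 at 410.0 and 281. CCN1, a matricellular protein, had 2067 and 1028 in C1, against C2 at 628 and 1188, C3 at 796 and 1054 and C8 at 960.2 and 596. All 3 were higher in C2 and C3, and lower in C1 and C8, in the second harvest than in the first, and the change of the C1 difference was -0.92 (SE 0.39), -1.77 (SE 0.56) and -1.22 (SE 0.54), each with a limma adjusted p of 1.00.

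The C1 differences were also described by the position of genes along the chromosomes. The scan was made for C1 alone, so whether such stretches are particular to C1 was not tested. By whole chromosome, C1 was above every other gelsolin clone on both beadchips for 21.4% of 429 genes on chromosome 7. C3 was so for 31% of 306 genes on the X chromosome, against 9.8% of all genes. In windows of 15 neighbouring genes, 9460 genes placed by RefSeq, none of 9136 windows reached a median difference of 0.5 on both beadchips, and the largest smaller median was 0.30, on chromosome 7 between TNPO3 and EXOC4. With a limit of 0.2, chosen after the values had been seen, 5 stretches were found above the limit and 0 below, on chromosome 7 from PON2 to MCM7, from CASTOR3P to WNT16 and from ZNF800 to CNOT4, and on chromosome 10 from CFAP70 to TSPAN14 and from SEMA4G to SMC3. The stretches were chosen on the C1 differences themselves, so their values are a description with no test.

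They held 203 genes, of which C1 was above every other clone on both beadchips for 86 (42.4%) and below for 0, against 10% and 5.38% of all genes tested. The other clones were in turn above all gelsolin lines on both beadchips for 2.46% (C2), 2.46% (C3) and 0.493% (C8) of these genes. Each of these shares was below the share of the same clone over all genes tested. A high share for C1 and low shares for the other clones follow from choosing the stretches on the C1 differences. They therefore do not show that the stretches are particular to C1. The largest stretch, CASTOR3P to WNT16, had 68 genes with median differences of 0.31 and 0.22, and 35 of them (51.5%) were highest in C1 on both beadchips. On the rest of chromosome 7 this was so for 36 of 299 genes, and on the rest of chromosome 10 for 45 of 303. Against the vector lines the median difference of C1 over the 203 genes was 0.23 and 0.25, and over all genes -0.01 and 0.08. PLAU lies in the stretch CFAP70 to TSPAN14, which had 26 genes and medians of 0.22 and 0.25, below the PLAU differences of 0.75 and 1.34. GCC1, a Golgi coiled-coil protein in the stretch ZNF800 to CNOT4, had 1520.3 and 1534 in C1, against 924 to 997 in the other clones, with a difference of 0.63 and 0.66. Of the 21 genes of the second harvest only, 19 were placed and 0 of these lay in a stretch, against 2.15% of all placed genes. With so small a share, 0 of 19 does not set these genes apart from the rest. Whether the copy number of these regions differs in C1 was not measured.

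**Figure D5:**
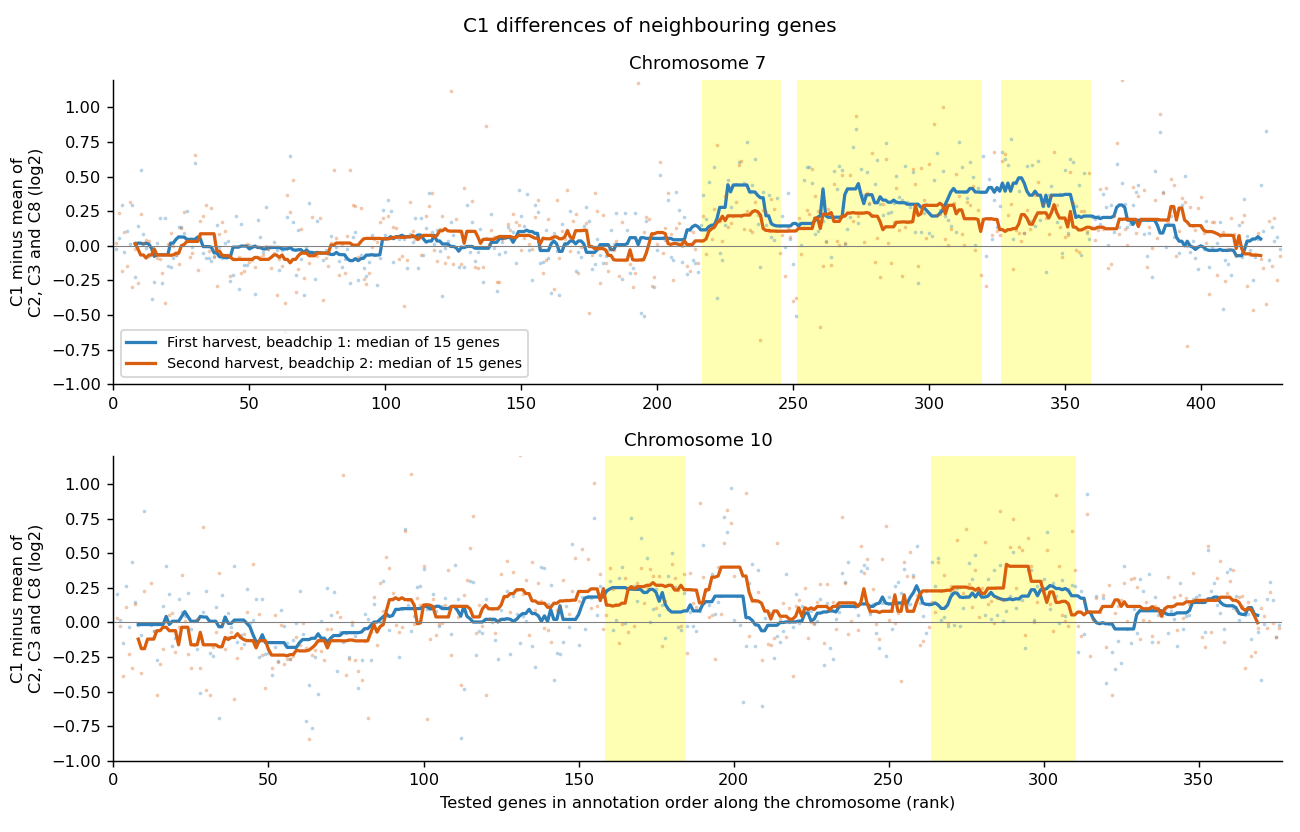
Rolling median over 15 neighbouring genes of the difference of C1 from the mean of C2, C3 and C8 (log2 scaled signal, y axis) against gene order (x axis) on chromosomes 7 and 10, for the first and the second harvest, with the stretches above 0.2 on both beadchips shaded. Single genes beyond the drawn range of -1 to 1.2 are not shown, and the medians of the harvests run together above 0 over the shaded stretches.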

How the data were processed

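The authors profiled HCT116 transfectants on HumanRef-8 beadchips, read them with BeadStudio and analysed them in GeneSpring, dividing each array by its median and each gene by a baseline value. The non-normalized table that the authors deposited holds intensity values (average bead signals) and was used here; the series table that the authors deposited holds ratio values of the same arrays and was left aside, as it is scaled per gene. In the sources used here BeadStudio's background treatment is not given. Precision is limited by the number of lines. Column names were matched to samples by the array codes in the labels, and 0 columns belonged to no sample of the series.

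Each array was divided by its median, multiplied by the common median (87.8147) and taken to log2. A probe was kept where the mean of at least 1 of the 4 gelsolin lines was above the common median, and a gene was represented by its probe with the highest mean over the 8 gelsolin arrays. The platform annotation gave 1 symbol for 18389 of 20596 probes, several for 0 and none for 2207; 18369 symbols were looked up by gene identifier and 0 changed. The test was limma 3.58.1 in R 4.3.3 (lmFit, eBayes with trend and robust) on line means, C1 minus the mean of C2, C3 and C8, 2-sided, with Benjamini-Hochberg adjustment over 10363 genes and a threshold of 0.05. C1 is a lone line and is assumed to vary like the others, and harvests repeat a line and are not replicates of a clone. The change was tested likewise on the second minus the first harvest. Gaps, counts and figures were made in Python 3.11.15 with numpy 2.4.6, pandas 2.3.3 and matplotlib 3.10.9. The scripts were tested on simulated data. The p-values of the tests on line means and of the change measure the spread between these lines only. Those of the array fits with lines as terms measure the spread between harvests and not between clones.

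For the gelsolin lines and V4 the replicate number in the labels goes with the beadchip, which pairs their arrays; the V5 array is labelled replicate 1 and lies on beadchip 2. Harvest differences of the lines correlated at 0.40 (C1 and C2), 0.36 (C1 and C3), 0.16 (C1 and C8), 0.58 (C2 and C3), -0.28 (C2 and C8) and -0.12 (C3 and C8).

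The genes named in the text are GSN, PLAU, PLAUR and MMP7, the genes with a 2-fold gap in both harvests (up to 12 above and 12 below by mean difference), those with it only in the second harvest (up to 12 above and 8 below by difference on beadchip 2) and up to 4 members of each list with the largest absolute mean difference; the others were named after their values were seen. The members and lists were chosen with earlier results of these data known. Alternatives were quantile normalization, normexp, an added offset, other filters, each probe by itself, plain eBayes, array fits with and without the replicate block, other gap limits, and each line and harvest left out.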

Additional observations from a re-analysis of the deposited data

Results flagged for a closer look

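In the 6 arrays of C2, C3 and C8, 1 array stood apart from the other 5 for 14 of the 158 named genes (Dixon's criterion at the 95% level). Chance alone flags about 1 in 20 groups, and C8 gave 9 of the 14. Each C1 difference for these genes includes the array in question.

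For C8 on beadchip 2, CXCL1 had 292 against 127 to 169 on the other arrays of these clones, HOXB5 had 2385 against 900.0 to 1126, LYZ had 146 against 63.1 to 85.3, PLAT had 484 against 161 to 225, RPL37 had 639 against 408 to 476, and ATP5F1C had 4270 against 5278 to 5818. C1 had 533 for CXCL1 and 1675 for HOXB5 on that beadchip, above and below the C8 array. For C8 on beadchip 1, CD44 had 4582 against 6184 to 7371, CTTN had 771 against 895 to 966, and ITGB4 had 1036 against 1596 to 1758. C1 on beadchip 1 had 7365 for CD44 and 1400 for CTTN, which binds cortical actin.

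For C2 on beadchip 1, ATF3 had 693 against 509 to 567, while C1 had 2054 on that beadchip. ANGPTL4 had 243 against 166 to 190 and CLDN4 had 179 against 111 to 128, and for C2 on beadchip 2 RPL32 had 257 against 155 to 180. For C3 on beadchip 1, IRF1 had 450 against 651 to 789, while C1 had 848.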

How the results depend on the processing

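Alternatives were set against the main count of genes past limma's threshold for C1 (0) and for the change between harvests (0), and against the 3 genes with a 2-fold gap in both harvests and the 21 with it only in the second. For C1 against the other clones, 5 genes passed with no limit on signal, 3 when the limit on signal was raised 2 times, 10 on arrays with lines as terms and the replicate block, 4 on arrays with no replicate block and 2 with the replicate block and line as a random block. Leaving out a harvest gave 0 to 3 genes, and leaving out C2, C3 or C8 gave 0 to 104, with 104 without C2, 13 without C3 and 0 without C8. For the change between harvests, 2 genes passed with no filter, 4 without C2, 1 without C3 and 125 without C8. The other settings (quantile normalization, normexp, an offset of 50, a filter on mean signal, each probe by itself, plain eBayes and arrays centred on the genes tested, the last chosen after seeing the data) gave 0 for both tests. The 3 genes apart in both harvests became 9 at a gap of 1.5-fold and 0 at 3-fold, and 2 to 6 when a clone was left out or an offset added (6 without C2, 3 without C3, 5 without C8, 2 with the offset). The 21 genes of the second harvest became 86 at 1.5-fold, 4 at 3-fold, 13 under normexp and quantile normalization and 12 with the offset of 50, and 22 to 31 when a clone was left out. The cause of these changes was not tested, other than that fewer or more clones and looser or stricter limits change the rule itself. No named gene that passed the threshold under an alternative had the other sign there, but values short of it did take the other sign. Among C1 differences of the named genes 38 of 2499 did so, 27 of them with a harvest left out (LCN2 had -0.12 and ISG15 -0.34 without the second harvest, against 1.36 and 0.61), and among their changes between harvests 58 of 1709 did. Of 344 list medians of the mean difference 59 took the other sign, 38 of them with both harvests kept, where the main median was within 0.098 of 0. The median of the interferon-stimulated effectors on beadchip 1 was 0.02 without C2, against -0.03. Of the differences of named genes under alternatives, 2406 kept their side of the threshold, 38 moved and 55 passed it, and of their changes between harvests 1615 kept it, 58 moved and 36 passed. No scaling moved the median of all genes by more than 0.1. Signals near background limit the dim genes, whose fold changes are likely understated.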

Other observations

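Some groups outside the sets above also differed between the harvests of C1. Of 10 keratins tested, C1 was below every other clone for 5 on beadchip 1 and for 0 on beadchip 2, and above every one for 1 and 5, with median differences of -0.31 and 0.22. The shares over all genes were 19.4% and 17.4% below, and 25.1% and 29.9% above. KRT20, a keratin of differentiated colon epithelium, had 83.6 and 105 in C1, against 88.9 to 159 in the other clones. Of 6 genes of the metallothionein list tested the medians were -0.15 and 0.70 (-0.16 and 0.70 without MT1E, which passed the limit on signal only through C1), and MT2A, which binds zinc and copper, had 4981 and 12816 in C1, against C2 at 6169.9 and 10737, C3 at 6698 and 8463 and C8 at 4019 and 5343, so that all gelsolin lines were higher in the second harvest. HOXB9, a posterior homeobox factor, had 444 and 1633 in C1, against 356 to 964 in the other clones, and a change of 1.18 (SE 0.30, limma adjusted p = 0.725).

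The second array of C8 departed from the other gelsolin clones for genes that C1 shared with C2 and C3. ALPP, placental alkaline phosphatase, had 4007 and 1075 in C1, 3992 and 1216 in C2 and 4564 and 1252 in C3, but 2968 and 4504 in C8 and 3115 to 3859 in the vector lines. HSD17B7, an enzyme of cholesterol synthesis, had 2865 and 883 in C1, 3119.8 and 1043 in C2 and 3396 and 969 in C3, but 2501 and 3197 in C8. For such genes a difference of C1 from the mean of the other clones in the second harvest (-0.82 for ALPP and -0.74 for HSD17B7) comes with a gap between C8 and the rest. Neither gene passed limma's tests.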
